A study of Mus musculus with 6 samples.

Results

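The nuclear genes for the subunits of respiratory complexes II to V and for cytochrome c were followed in 6 RNA-seq libraries of mouse kidney tubular epithelial cells. Members were chosen by symbol, with earlier results of these data known. They were rows beginning with Uqcr, Cox4, Cox5, Cox6, Cox7, Cox8 or Atp5, together with Sdha, Sdhb, Sdhc, Sdhd, Cyc1 and Cycs. Left out were 10 rows marked -ps. This gave 50 of the 55367 rows in each library, with 4 genes of complex II, 9 of complex III, 1 for cytochrome c, 19 of complex IV and 17 of complex V. A test was made for 46 of them, and Cox6a2, Cox8b, Cox8c and Cox7b2 stayed under the minimum level for a test.

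The 3 groups had 2 libraries each, all labelled Day115. WT mice received saline, ADPKD mice lacked Pkd1 (Pkd1-/-) and also received saline, and ADPKD+MMPP mice lacked Pkd1 and received MMPP, a PEG-coated, manganese-chelated melanin-like nanoparticle, by intravenous injection. ADPKD, autosomal dominant polycystic kidney disease, is modelled here in male Pkd1 fl/fl;Cre/Esr1+ mice in which tamoxifen switches on Cre, and the promoter that drives Cre is not given in the sources used here. Cells binding DBA, a lectin that labels collecting duct epithelium, were captured on beads from digested kidneys, so that other cells can remain in the RNA. The comparisons ask how subunit expression differs in Pkd1-null cells and after the nanoparticle. The labels do not say that the libraries of a group come from separate mice, so p-values measure only the spread between these libraries.

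Oxidative phosphorylation passes electrons along the inner mitochondrial membrane and uses the resulting proton gradient to make ATP. Complex II, succinate dehydrogenase, feeds electrons from the TCA cycle into the chain, complex III passes them to cytochrome c, complex IV hands them to oxygen, and complex V, ATP synthase, makes ATP. Complex II is built from nuclear genes alone, whereas complexes III, IV and V each also need subunits made from mitochondrial DNA. Several complex IV subunits and the ATP synthase c ring are encoded by paralogous genes used in different tissues. Kidney tubules, above all the proximal tubule and the acid-secreting intercalated cells, are rich in mitochondria.

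FPKM scales a gene's reads to its length and to the reads of the library. Whole read numbers were recovered here with the length of all annotated exons of a gene. That length was 4912 bases for Atp5g1, with 411 coding bases, and 1675 for Atp5g2, with 441. Levels of different genes within a library therefore compare only roughly, and rankings and shares below are of FPKM. Fold changes below are differences of log2(FPKM + 1), given with their standard error, and calls required a change of 1.5-fold or more together with an unadjusted P under 0.05 in limma. Reads recovered from the FPKM steps came to between 30600000 and 33100000 for the WT and ADPKD libraries and to 11800000 and 10900000 for the ADPKD+MMPP libraries. Odd read numbers made up 35.5 to 37.5% of low values in the former and 7.29 to 7.77% in the latter, so the treatment and a difference in how the reads were handled cannot be told apart. Pkd1, the gene deleted in the model, stood at 17.7 and 17.2 FPKM in WT, 7.64 and 8.91 in ADPKD and 4.34 and 3.99 in ADPKD+MMPP (log2 fold change of ADPKD against WT -0.998, limma adjusted p = 0.00566). All 37 mitochondrially encoded rows were listed at 0 in all 6 libraries, so the partners made from mitochondrial DNA were not measured.

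Levels of other cells' markers differed between the groups. The principal cell marker Aqp2 stood at 1267 and 1776 FPKM in WT, 1392 and 677 in ADPKD, and 3555 and 3499 in ADPKD+MMPP, so its RNA was present in each library. Of 10 principal cell markers 9 were tested. After treatment 6 were called higher and 1 lower, against 27.9% and 43.0% of all genes tested. Scnn1b fell, from 133 and 56.7 FPKM in ADPKD to 26.25 and 23.74 in ADPKD+MMPP. Summed over 15 proximal tubule markers, the level was 563 to 769 FPKM in WT, 1413 to 1958 in ADPKD and 21600 to 22780 in ADPKD+MMPP. Kap (12820 and 12120 FPKM) and Gpx3 (8789 and 8321) made up most of the treated sum. The median log2 fold change of the 15 after treatment was 2.73. Of the 15, 11 were called higher after treatment and 1 lower (27.9% and 43.0% of all genes tested), and the defining factor Hnf4a stood at 0.0351 and 0 FPKM. Summed over 9 intercalated cell markers, the level was 292 to 300 FPKM in WT, 30.9 to 81.4 in ADPKD and 263 to 272 in ADPKD+MMPP. All 9 were called lower in ADPKD (12.5% of all genes tested) and higher after treatment (27.9%). In bulk RNA, fewer cells of a type and less RNA per cell cannot be told apart, and the part of these cells in the results below was not tested.

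Sequences shared between members bear on how far their levels can be read apart. The c ring of ATP synthase is encoded by Atp5g1 (chr11:96068852-96075670, minus strand, GRCm38), Atp5g2 (chr15:102662864-102672352, minus strand) and Atp5g3 (chr2:73908447-73911326, minus strand), whose products differ in the targeting peptide that is removed on import. Over their last 75 codons the 3 genes encode the same amino acids while the DNA differs at 34 of 225 bases between Atp5g1 and Atp5g2, at 45 between Atp5g1 and Atp5g3 and at 48 between Atp5g2 and Atp5g3. The last 60 coding bases before the stop codon, from GENCODE vM21 transcripts, show this, with bases that differ from Atp5g1 in capitals:
Atp5g1: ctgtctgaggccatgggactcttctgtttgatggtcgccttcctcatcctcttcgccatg
Atp5g2: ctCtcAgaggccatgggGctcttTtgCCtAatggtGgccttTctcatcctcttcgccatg
Atp5g3: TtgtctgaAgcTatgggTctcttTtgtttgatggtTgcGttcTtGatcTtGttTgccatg

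Cox6c2, in contrast, is annotated in vM21 as a processed pseudogene (chr12:56373593-56373823, minus strand) and matched Cox6c (chr15:35925886-35938246, minus strand) at all but 7 of 231 coding bases. The first 60 coding bases are shown with the differing bases in capitals, because so close a copy can draw reads from its parent:
Cox6c: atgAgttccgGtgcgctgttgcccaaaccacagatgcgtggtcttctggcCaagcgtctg
Cox6c2: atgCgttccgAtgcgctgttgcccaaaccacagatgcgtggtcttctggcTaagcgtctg

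Promoter sequences, from 250 bases before to 50 after the start in the RefSeq table for GRCm38.p6, were found for 37 of the 50 members. The letters GCGCATGC, the core of the site of nuclear respiratory factor 1 (NRF1), stood on either strand in 8 member promoters (21.6%), against 2.80% of 27025 promoters in the table and 4.99% of 10336 promoters of tested genes. CCGGAAG, the core bound by GABPA, stood in 12 (32.4%), against 9.12% and 17.2%. AAGATGGCG, the core bound by YY1, stood in 1, that of Atp5j2 (2.70%), against 1.49% and 3.12%. TGACGTCA, the full cAMP response element (CRE) bound by CREB, the factor the study was concerned with, stood in 2, those of Cycs and Uqcrfs1 (5.41%), against 1.88% and 3.04%. Windows from GRCm38.p6 are shown for both genes with the CRE letters and for 3 whose changes are described below, written along the gene's strand with the matched letters in capitals:
Cycs, CRE, chr6:50566721-50566748, minus strand: ggccagagggTGACGTCAcgcacgtcca
Uqcrfs1, CRE, chr13:30545328-30545355, minus strand: ggcgtcgcgcTGACGTCAcaaaccctgc
Cycs, NRF1 on the other strand, chr6:50566612-50566639, minus strand: atgctagctcGCATGCGCgcgcacaaac
Uqcr11, NRF1 on the other strand, chr10:80406808-80406835, minus strand: tcgccttcacGCATGCGCtatacgtctg
Sdhd, GABPA on the other strand, chr9:50603879-50603905, minus strand: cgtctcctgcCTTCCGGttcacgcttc
The NRF1 letters were present in Atp5g2, Atp5k, Atp5l, Cox6a1, Cycs, Sdhb, Uqcr11 and Uqcrc1. A match describes letters in the window, and binding was not measured.

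Loss of Pkd1 was accompanied by few calls among the subunits. In ADPKD against WT, 1 of the 46 tested members was called higher (Cox6b2) and 2 lower (Cox4i2 and Cox7a1), all 3 of them low-level paralogs of complex IV, whereas 14.2% of all 14862 genes tested were called higher and 12.5% lower, or 26.7% in either direction. Both ADPKD libraries lay above both WT libraries in 8 members and below them in 9, against 35.5% and 31.5% of all genes tested. The members' median log2 fold change was -0.14, with 33 of 46 below 0, and the median of all genes tested was 0.03. By complex the median was -0.29 for complex II, -0.19 for complex III, 0.08 for complex IV and -0.15 for complex V, and no gene of complexes II, III or V nor Cycs was called.

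The small fall of most members rested on 1 library. ADPKD replicate 2 was below ADPKD replicate 1 in 46 of 46 tested members, with a median difference of -0.44 on the log2 scale, whereas 52.9% of all genes tested were lower in it. It was also the lowest of the 4 WT and ADPKD libraries in 36 of 46 members. The summed principal cell markers moved with it, at 2523 FPKM in ADPKD replicate 1 and 972 in ADPKD replicate 2, as did the summed proximal tubule and intercalated cell markers, and their part in the result was not tested. Without ADPKD replicate 2 the members' median was 0.09 with 1 called higher and none lower, and without ADPKD replicate 1 it was -0.37 with none higher and 7 lower. Summed over the 50 members, the level was 4523.5 and 4231.9 FPKM in WT and 4724.9 and 3502.5 in ADPKD, so ADPKD held both the highest and the lowest of these sums.

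After MMPP the picture was different. In ADPKD+MMPP against ADPKD, 32 of the 46 tested members were called higher and 6 lower, whereas 27.9% of all genes tested were called higher and 43.0% lower. In either direction 82.6% of the members and 70.9% of all genes tested were called. Both treated libraries lay above both ADPKD libraries in 35 members (36.1% of all genes tested) and below them in 7 (51.7%). The members had a median log2 fold change of 1.49, and all genes tested one of -0.36. Against WT, 33 members were higher and 5 lower (30.1% and 43.8% of all genes tested, 73.9% in either direction), with a median of 1.33, and the libraries lay apart upwards in 35 members and downwards in 9 (38.9% and 53.0% of all genes tested). The 2 comparisons share the ADPKD+MMPP libraries. All calls of both comparisons held with an adjusted p under 0.05 in limma. The members' summed level rose to 11200.0 and 11140.9 FPKM, which was 3.20 and 3.17% of the FPKM of the library, against 1.59 to 1.70% in WT and 1.24 to 1.66% in ADPKD.

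**Figure D1:**
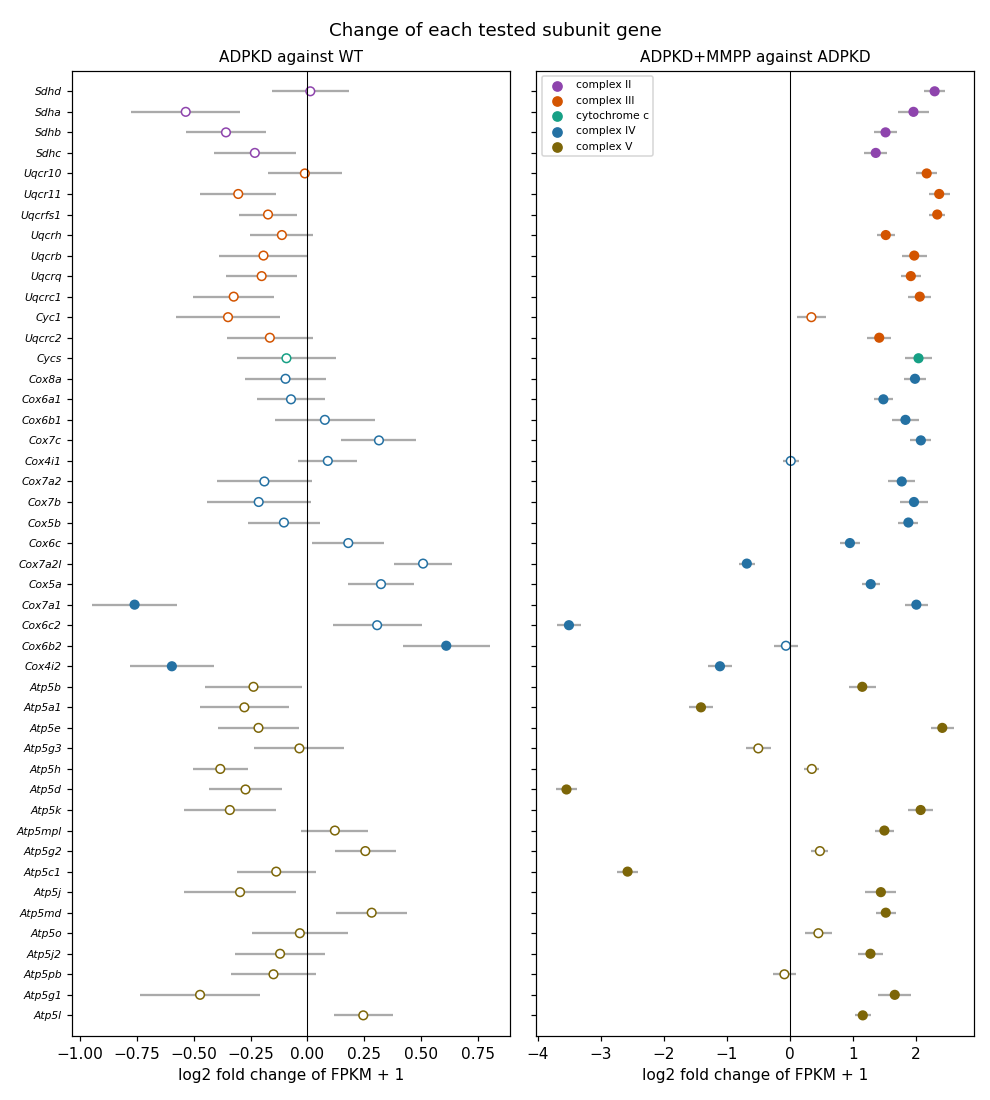
Log2 fold change of FPKM + 1 for each of the 46 tested subunit genes (points, coloured by complex, filled where called) with its standard error from limma (bars), for ADPKD against WT on the left and ADPKD+MMPP against ADPKD on the right, each on its own horizontal scale. On the left 3 points are filled, and on the right 32 filled points lie above 0 and 6 below it, the lowest being Atp5d at -3.54.

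Not every complex changed to the same extent. The summed level of complex II was 224.9 ± 19.1 FPKM in WT (SD, n = 2), 190.9 ± 45.7 in ADPKD and 754.9 ± 23.0 in ADPKD+MMPP, and that of complex III was 755.5 ± 24.4, 672.5 ± 131 and 2633.4 ± 61.6. The ratio of ADPKD+MMPP to ADPKD was 3.95 for complex II, 3.92 for complex III, 4.13 for cytochrome c and 3.0 for complex IV. Complex V stood apart with a ratio of 1.48, since its sum was 1941.9 and 1954.3 FPKM after treatment and 1541.1 and 1095.7 in ADPKD. On deposited FPKM both ADPKD+MMPP libraries lay above all 4 others for each complex. As a percentage of the library's summed FPKM this did not hold for complex V, at 0.573 and 0.535% in WT, 0.542 and 0.389% in ADPKD and 0.555 and 0.557% in ADPKD+MMPP, while it held for the other complexes and cytochrome c. With 2 libraries a group an exact permutation test of a sum cannot go below p = 0.333.

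**Figure D2:**
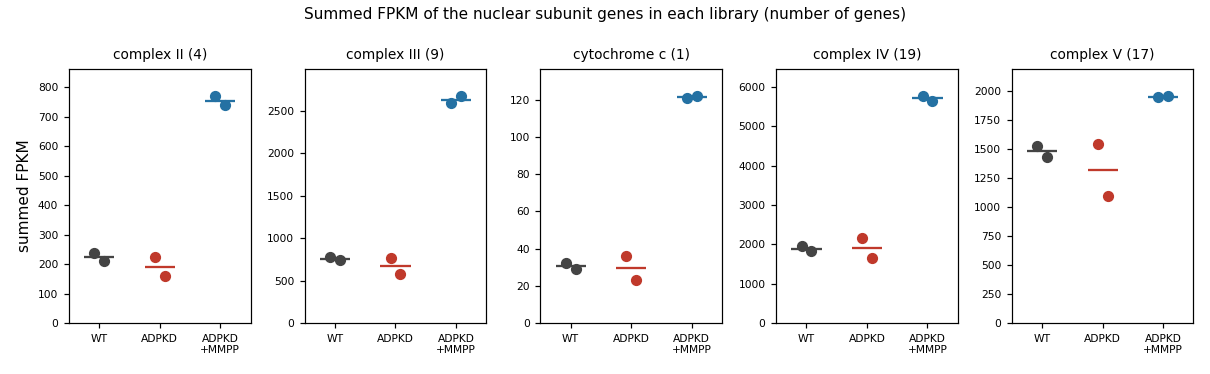
Summed FPKM of the nuclear subunit genes of each complex in each library (points) with the mean of the group (line), each panel on its own scale starting at 0 and headed by the number of genes. The ADPKD+MMPP points lie above the others in every panel, by the smallest ratio for complex V (1.48 over ADPKD).

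Complex II carries the TCA cycle enzyme that oxidises succinate, and all 4 of its genes were called higher after MMPP (27.9% of all genes tested). Sdha, the flavoprotein with the active site, stood at 78.0 and 67.7 FPKM in WT, 63.5 and 39.0 in ADPKD and 197 and 197 in ADPKD+MMPP (log2 fold change against ADPKD 1.96 ± 0.24, limma adjusted p = 0.000656). It had the lowest change of the complex in ADPKD against WT, at -0.54 ± 0.24 (limma adjusted p = 0.154), although the libraries of those groups did not overlap. Sdhb, the iron-sulphur subunit, stood at 46.6 and 37.8 FPKM in WT, 36.4 and 29.1 in ADPKD and 102 and 88.7 after treatment, a change of 1.52 ± 0.18. The membrane anchors differed in level and in change. Sdhc was measured at 33.3 and 30.2 FPKM in WT, 31.8 and 22.7 in ADPKD and 71.8 and 69.8 in ADPKD+MMPP, a change of 1.36 ± 0.18. Sdhd, the most abundant gene of the complex, was measured at 80.6 and 75.7, then 91.7 and 67.8, then 401 and 383 FPKM, a change of 2.30 ± 0.17. Against genes of like transcript overlap the changes were 1.20 for Sdhd and 1.95 for Sdha.

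Complex III passes electrons from ubiquinol to cytochrome c. Of its 9 nuclear genes 8 were called higher after MMPP (27.9% of all genes tested). None was called in ADPKD against WT (26.7% of all genes tested in either direction). The Rieske iron-sulphur protein Uqcrfs1 went from 108 and 100 FPKM in WT and 99.1 and 85.7 in ADPKD to 475 and 466 in ADPKD+MMPP (2.34 ± 0.13, limma adjusted p = 4.61e-05). It has a single annotated transcript, and its promoter holds CRE letters in the window printed above. Against genes of like transcript overlap its change was 1.24. The core proteins, which stem from the same family as mitochondrial processing peptidases, also rose. Uqcrc1 stood at 45.1 and 39.6 FPKM in WT, 39.4 and 28.7 in ADPKD and 144 and 143 after treatment (2.06 ± 0.18), and Uqcrc2 at 48.8 and 46.8, 51.0 and 35.4, and 112 and 118 (1.42 ± 0.19). Cyc1, the cytochrome c1 that hands electrons to cytochrome c, was the exception, at 78.5 and 70.6 FPKM in WT, 73.4 and 46.1 in ADPKD and 76.8 and 71.6 in ADPKD+MMPP (0.34 ± 0.23, limma adjusted p = 0.217), and its treated libraries overlapped both other groups. Set against protein-coding genes of like transcript overlap, a step described further on, Cyc1 changed by 1.99 and was called higher, as were then 9 of 9 genes of the complex.

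The 5 small accessory subunits of complex III all rose, by between 1.52 for Uqcrh and 2.37 for Uqcr11. Uqcr10 was the most abundant gene of the complex, at 144 and 137 FPKM in WT, 158 and 123 in ADPKD and 597 and 668 after treatment (2.17 ± 0.16). Uqcr11 stood at 118 and 110 FPKM in WT, 106 and 79.5 in ADPKD and 464 and 494 in ADPKD+MMPP. Its change of 2.37 ± 0.17 was the highest of the complex and the next highest of all members after Atp5e. Cycs, the mobile carrier between complexes III and IV and a trigger of apoptosis when released, stood at 32.4 and 29.2 FPKM in WT, 36.0 and 23.0 in ADPKD and 121 and 122 after treatment (2.04 ± 0.22, limma adjusted p = 0.000397). Against genes of like transcript overlap Cycs changed by 0.94.

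Complex IV, cytochrome c oxidase, is surrounded by small nuclear subunits. Of its 15 tested genes 10 were called higher after MMPP, 3 lower and 2 not at all. Of all genes tested, 27.9% were called higher and 43.0% lower. The 3 called lower include the pseudogene row Cox6c2. Against genes of like transcript overlap 13 of 14 were called higher and none lower, whereas 33.8% and 24.5% of protein-coding genes were. The most abundant were Cox8a, at 499 and 473 FPKM in WT, 533 and 387 in ADPKD and 1853 and 1754 in ADPKD+MMPP (1.99 ± 0.18), and Cox6a1, at 552 and 504, 561 and 449, and 1380.0 and 1431 (1.49 ± 0.15). Both are the forms used outside muscle. Subunit 5a, which binds thyroid hormone, and subunit 5b, which holds zinc, rose too. Cox5a went from 28.9 and 25.7 FPKM in WT and 37.8 and 31.3 in ADPKD to 87.6 and 82.8 (1.28 ± 0.14), and it had one of the 3 highest changes of ADPKD against WT (0.32 ± 0.14, limma adjusted p = 0.151). Cox5b went from 82.9 and 75.9 in WT and 83.8 and 64.9 in ADPKD to 273 and 276 FPKM (1.88 ± 0.16). Cox7c had the highest change of all members against WT, with 101 and 98.8 FPKM in WT, 144 and 108 in ADPKD and 541 and 519 in ADPKD+MMPP (2.39 against WT and 2.08 ± 0.17 against ADPKD). Cox7b, at 88.0 and 83.4, 93.0 and 58.4, and 278 and 306 FPKM, rose by 1.97 ± 0.23.

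Paralogs of complex IV subunits were compared as shares of their summed FPKM in each library. Subunit 4 sets how ATP slows the enzyme and is made from Cox4i1 in most tissues, while Cox4i2 is the form of lung and other oxygen-sensing cells and of pericytes. Cox4i1 was not called, at 193 and 176 FPKM in WT, 209 and 184 in ADPKD and 191 and 206 in ADPKD+MMPP (0.02 ± 0.13 against ADPKD, limma adjusted p = 0.917). Set against genes of like transcript overlap it was called higher, by 0.66 against ADPKD and 0.74 against WT. Cox4i2 stood at 4.90 and 3.36 FPKM in WT, 2.42 and 2.30 in ADPKD and 0.430 and 0.698 in ADPKD+MMPP, from 118, 82, 63, 58, 4 and 6 reads. It was called lower in ADPKD (-0.60 ± 0.18, limma adjusted p = 0.0643) and lower again after treatment (-1.11 ± 0.18, limma adjusted p = 0.00234). Its share of subunit 4 was 2.47 and 1.87% in WT, 1.14 and 1.23% in ADPKD and 0.224 and 0.337% in ADPKD+MMPP, and the groups did not overlap.

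Cox4i2 and the sum of 5 endothelial markers were both lower in ADPKD+MMPP than in the other 4 libraries. So were 46.6% of all genes tested. The summed level of the endothelial markers was 555 to 680 FPKM in WT, 257 to 268 in ADPKD and 113 in both ADPKD+MMPP libraries. In ADPKD against WT 5 of 5 were called lower (12.5% of all genes tested), and after treatment 3 of 5 (43.0%). Of 8 muscle markers, summed at 85.7 to 104 FPKM in WT, 52.5 to 53.9 in ADPKD and 90.5 to 98.1 in ADPKD+MMPP, Des and Myh11 were highest in WT, while Acta2 was highest in ADPKD+MMPP, at 84.5 and 78.3 FPKM. Whether such cells bear on Cox4i2 was not tested. Its call in ADPKD against WT was lost without WT replicate 1 (-0.38) and without ADPKD replicate 2 (-0.57), and its change after treatment turned to 0.83 when genes were compared only with others of like transcript overlap, as set out below.

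Subunit 7a has a heart and muscle form, Cox7a1, and a ubiquitous form, Cox7a2, while the related Cox7a2l joins complexes III and IV in supercomplexes. Cox7a1 stood at 13.4 and 12.2 FPKM in WT, 8.65 and 5.89 in ADPKD and 30.7 and 32.9 in ADPKD+MMPP. It was called lower in ADPKD (-0.76 ± 0.19, limma adjusted p = 0.0335), the lowest change of all members and the one call of that comparison with an adjusted p under 0.05, and higher after treatment (2.01 ± 0.19, limma adjusted p = 0.000234). Its level was thus lowest in ADPKD and highest after MMPP, and without ADPKD replicate 2 the fall was -0.52 and no longer called. Cox7a2 stood at 95.5 and 92.8 FPKM in WT, 102 and 66.9 in ADPKD and 296 and 274 after treatment (1.78 ± 0.21).

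On the deposited FPKM, Cox7a2l went the other way from both relatives. It stood at 56.1 and 60.2 FPKM in WT, 83.5 and 82.8 in ADPKD and 55.5 and 47.8 in ADPKD+MMPP. The rise in ADPKD (0.51 ± 0.13, limma adjusted p = 0.0366) stayed under the fold change needed for a call, and the fall after treatment was called (-0.68 ± 0.13, limma adjusted p = 0.0039). The call was lost with TMM factors (-0.35) and without ADPKD+MMPP replicate 2 (-0.58), and against genes of like transcript overlap Cox7a2l was called higher (1.04). Within the family, the share of Cox7a2l was 34.0 and 36.4% in WT, 43.1 and 53.2% in ADPKD and 14.5 and 13.5% in ADPKD+MMPP. The share of Cox7a2 was 57.9 and 56.2%, 52.5 and 43.0%, and 77.4 and 77.3%. The log2 ratio of Cox7a2 to Cox7a2l rose by 2.46 from ADPKD to ADPKD+MMPP, with no overlap of the libraries, and an exact two-sided permutation test gave the smallest p this design allows, 0.333.

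Cox6b2, the testis form of subunit 6b, was the member called higher in ADPKD, at 4.55 and 4.14 FPKM in WT, 8.35 and 6.11 in ADPKD and 5.96 and 7.78 in ADPKD+MMPP (0.61 ± 0.19, limma adjusted p = 0.0656). That call was lost without WT replicate 1, WT replicate 2 or ADPKD replicate 1 (0.67, 0.56 and 0.41), with a common FPKM sum (0.54) and with TMM factors (0.58). Its ubiquitous counterpart Cox6b1 stood at 177 and 164, 223 and 145, and 684 and 608 FPKM (1.83 ± 0.22 after treatment), so that Cox6b2 made up 2.50 and 2.46% of subunit 6b in WT, 3.61 and 4.03% in ADPKD and 0.864 and 1.26% in ADPKD+MMPP. Cox6c2, the pseudogene copy, stood at 8.35 and 7.97 FPKM in WT, 12.7 and 8.37 in ADPKD and 0 in both ADPKD+MMPP libraries. With a floor of 3 reads in each library, the bound on its fall after treatment was 9.20-fold against ADPKD. Odd read numbers were few in the treated libraries, so 3 reads may be fewer independent ones and the bound weaker. Its parent Cox6c rose from 57.4 and 44.4 to 98.4 and 99.2 FPKM (0.95 ± 0.16). The members' median with Cox6c2 at that bound is 1.49, a value that 1 low gene cannot move.

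The muscle and testis forms that were not tested were near the limit of detection. Cox8b, the muscle form of subunit 8, had 12 and 8 reads in WT and none in the other 4 libraries, which makes it at least 3.53-fold lower in ADPKD than in WT. The shallower ADPKD+MMPP libraries bound the fall there at no more than at least 1.23-fold, and at less if reads there were not independent. Cox6a2, the muscle form of subunit 6a, had 3 and 2 reads in WT, 0 and 2 in ADPKD and 6 and 10 in ADPKD+MMPP, so that it made up at most 0.0941% of subunit 6a. Cox8c had 1 read in all, and Cox7b2 had none, which at this depth allows up to 0.167 to 0.507 FPKM for Cox7b2.

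**Figure D3:**
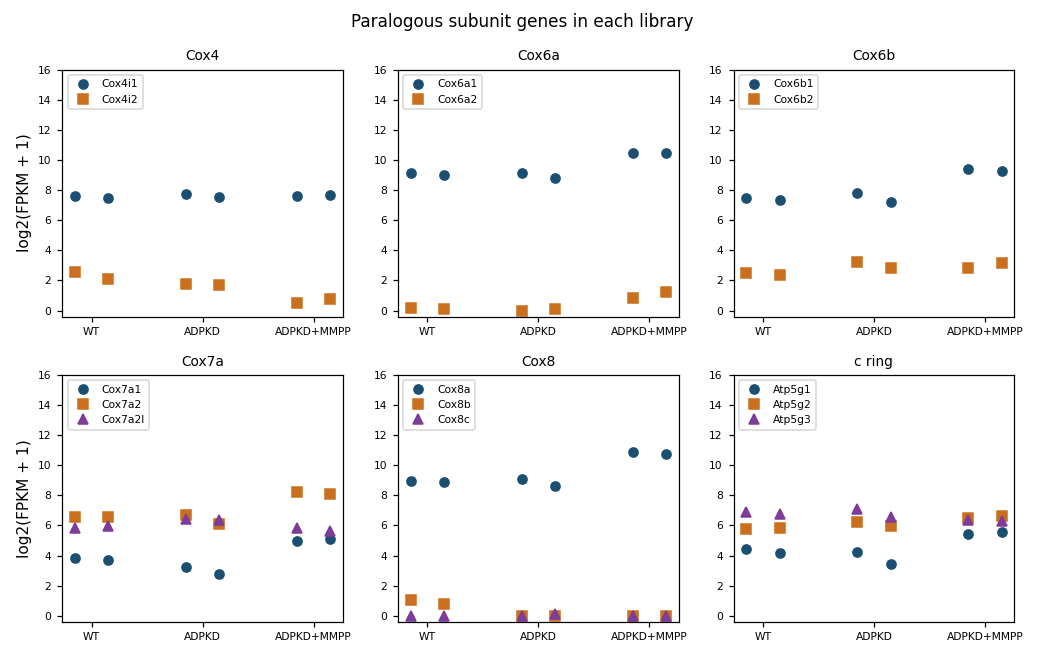
Level of paralogous subunit genes in each of the 6 libraries, as log2(FPKM + 1), for 5 families of complex IV and the c ring of complex V, with replicates 1 and 2 side by side within each group. Cox4i2 lies lower in each group in turn (0.430 and 0.698 FPKM in ADPKD+MMPP), Cox7a2 and Cox7a1 rise after MMPP while Cox7a2l does not on this scale, and Atp5g2 lies above Atp5g3 only in ADPKD+MMPP.

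On the deposited FPKM, complex V held genes called in opposite directions within its catalytic head. Its F1 head, where ATP is made, consists of alpha and beta subunits around a central stalk of gamma, delta and epsilon. Atp5b, the beta subunit and the most abundant gene of the complex, rose from 351 and 324 FPKM in WT and 354 and 232 in ADPKD to 640 and 634 in ADPKD+MMPP (1.15 ± 0.21, limma adjusted p = 0.00368). Atp5a1, the alpha subunit with which it alternates in the head, fell from 323 and 297 in WT and 307 and 212 in ADPKD to 94.4 and 96.8 FPKM (-1.41 ± 0.20, limma adjusted p = 0.0011). Against genes of like transcript overlap Atp5a1 changed by 0.32 and was not called. On the deposited scale the genes stood at similar levels in WT and ADPKD, and Atp5b lay far above Atp5a1 in both treated libraries.

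The central stalk held genes called in both directions too. Atp5c1, the gamma subunit that turns within the head, stood at 97.9 and 90.9 FPKM in WT, 99.4 and 73.8 in ADPKD and 13.0 and 14.2 in ADPKD+MMPP (-2.57 ± 0.17, limma adjusted p = 7.91e-05), but against genes of like transcript overlap its change was -0.46 and was not called. Atp5d, the delta subunit, stood at 134 and 124, 122 and 93.0, and 8.13 and 8.37 FPKM, and its change of -3.54 ± 0.16 was the lowest of all members with reads in every library (limma adjusted p = 3.02e-05), and it was called lower under that step as well (-2.36). Atp5e, the epsilon subunit, rose from 57.1 and 51.4 in WT and 54.8 and 39.5 in ADPKD to 251 and 256 FPKM, the highest change of all members (2.42 ± 0.18, limma adjusted p = 0.00011). In ADPKD against WT none of these 5 was called, with changes between -0.28 and -0.14.

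The 5 accessory subunits that shape the membrane and hold the dimer, Atp5k, Atp5mpl, Atp5md, Atp5j2 and Atp5l, all rose, with changes between 1.16 and 2.08. All were called higher (27.9% of all genes tested). Against genes of like transcript overlap 3 of the 5 were called higher, and Atp5j2 (0.46) and Atp5l (0.05) were not called. Of the peripheral stalk, which keeps the head from turning, Atp5j rose (1.45 ± 0.25) while Atp5h (0.35 ± 0.12), Atp5o (0.45 ± 0.21) and Atp5pb (-0.09 ± 0.19) were not called. Overlapping annotation touches several of these genes, since exons of Atp5j share 12.7% of their bases with Gabpa and those of Atp5pb 8.21% with 2 other genes. Over the members, 13 of 49 with a gene in vM21 overlap an exon of another gene.

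On the deposited FPKM, the order of the paralogs within the c ring changed. That order depends on the annotated exon length, which was 4912 bases for Atp5g1, 1675 for Atp5g2 and 2181 for Atp5g3. Atp5g3 had the highest FPKM in WT, at 118 and 109, and in ADPKD, at 134 and 91.7. It stood at 79.6 and 76.7 in ADPKD+MMPP (-0.50 ± 0.20, limma adjusted p = 0.0606, not called). Atp5g2 stood at 54.6 and 57.1, 73.0 and 61.2, and 90.9 and 96.0 FPKM (0.48 ± 0.14, under the fold change for a call). Atp5g1 had the lowest FPKM, at 20.5 and 17.4, 17.7 and 9.99, and 42.7 and 46.3, and was called higher after treatment (1.67 ± 0.26, limma adjusted p = 0.00186). The share of Atp5g3 in the summed FPKM of the ring's genes was 61.2 and 59.4% in WT, 59.6 and 56.3% in ADPKD and 37.3 and 35.0% in ADPKD+MMPP, below that of Atp5g2 at 42.6 and 43.8%. Atp5g1 made up 10.6 and 9.48%, 7.87 and 6.14%, and 20 and 21.1%. The log2 ratio of Atp5g2 to Atp5g3 rose by 0.98 from ADPKD to ADPKD+MMPP without overlap (exact two-sided permutation p = 0.333, the smallest possible). Against genes of like transcript overlap that rise was 0.77, Atp5g1 changed by 3.78 (called higher), Atp5g2 by 0.06 (not called) and Atp5g3 by -0.71 (called lower). Of the reads of Atp5g1 and its near-identical copy Gm10039, 23.7 and 26.7% lay on the copy in ADPKD and 0.403 and 0.241% in ADPKD+MMPP.

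Across the protein-coding genes the change after MMPP went with the portion of the exon sequence that is annotated in just 1 transcript. Over 12377 tested protein-coding genes, Spearman's rho between that share and the log2 fold change of ADPKD+MMPP against ADPKD was 0.648, and for ADPKD against WT it was 0.045. Over 45 members it was 0.143, as a description across genes within the same 4 libraries. The members' median share was 56.7%, against 53.3% for all. The subunits of complex V that fell had low shares, at 28.5% for Atp5a1, 8.96% for Atp5c1 and 37.8% for Atp5d, as did Cox4i2 (14.7%) and Cox7a2l (28.3%). Uqcr10 (12.7%), Uqcr11 (14.4%) and Atp5g1 (4.70%) had low shares too and rose.

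When each gene was set against other protein-coding genes of like share, 35 of 44 members were called higher and 2 lower after MMPP, whereas 33.8% of 12377 protein-coding genes were called higher and 24.5% lower. The 2 were Atp5d (-2.36) and Atp5g3 (-0.71). Atp5c1 was then at -0.46 and no longer called, while Atp5a1 turned to 0.32, Cox7a2l to 1.04 and Cox4i2 to 0.83. The medians by complex were 1.25 for complex II, 2.17 for complex III, 0.94 for cytochrome c (1 gene), 2.1 for complex IV and 0.58 for complex V. The lower position of complex V and the fall of Atp5d were thus present with and without this step, and the falls of the alpha and gamma subunits and of Cox7a2l were not called with it.

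**Figure D4:**
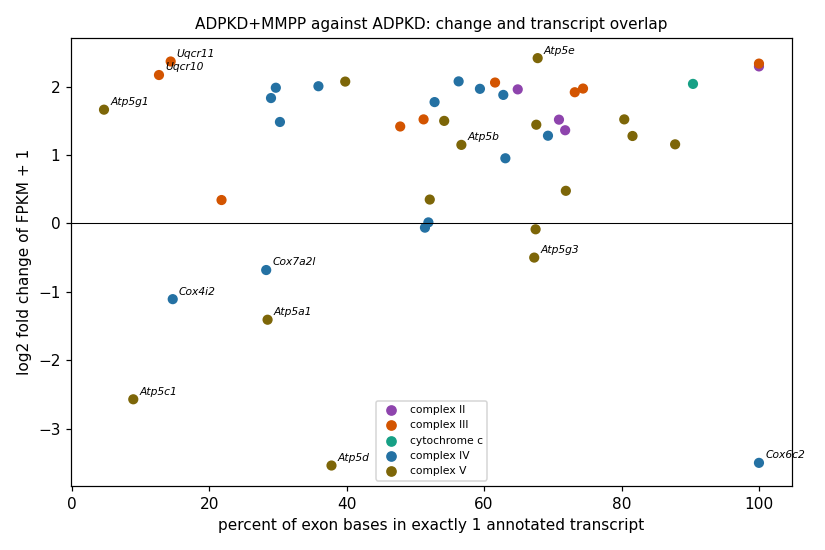
Log2 fold change of FPKM + 1 for ADPKD+MMPP against ADPKD (vertical axis) and percent of exon bases annotated in 1 transcript only (horizontal axis) for the 45 tested members with a gene in vM21, coloured by complex. The genes called lower on the deposited FPKM, other than Cox6c2, lie under 40%, where Uqcr10, Uqcr11 and Atp5g1 also lie among the genes that rose (Spearman's rho 0.143 over the members).

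Near-identical copies form another part of this family. Of the 50 members, 16 have at least 1 other annotated gene with a transcript match of at least 95% identity over at least 200 bases, and in each case a copy had a level above 0 in these files. Of 10 copies with at least 5 FPKM in a library, 8 were lower in both ADPKD+MMPP libraries than in the other 4. Most of these 8 reached 5 FPKM only in WT or ADPKD libraries, and Gm4045, which was not among them, only in ADPKD+MMPP. The filter thus bears on the direction, and the count is not a test. Of all genes tested, which passed a different filter, 46.6% were lower in both treated libraries. The parents of 6 of the 8 copies were called higher after MMPP. Gm10039, a processed pseudogene that matches Atp5g1 at 99.8% over 411 bases, stood at 77.4 and 72.5 FPKM in WT, 65.5 and 43.6 in ADPKD and 2.06 and 1.34 in ADPKD+MMPP. Gm10221, a copy of Atp5l, went from 85.2 and 82.6 in WT and 87.2 and 66.9 in ADPKD to 2.19 and 0.593 FPKM. In WT and ADPKD these copies stood above their parents per length, and after treatment below them.

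Gm6969, a copy of Cox7a2l, stood at 127 and 137 FPKM in WT, 74.5 and 187 in ADPKD and 0.495 and 0 in ADPKD+MMPP. The excluded row Cox5b-ps went from 26.7 and 23.4 in WT and 22.3 and 17.1 in ADPKD to 3.48 and 2.82 FPKM, and the copies Gm10250 of Atp5h, Gm10053 of Cycs and Gm2962 of Uqcrb were also lower in both treated libraries than in the other 4. Gm10175 of Atp5g2 (7.27 and 4.74 in ADPKD, 6.83 and 11.7 in ADPKD+MMPP) and Gm4045 of Atp5l (4.19 and 3.22, then 3.83 and 7.10) did not follow. With the reads of parents and copies added together, a step chosen after the data were seen, the change after treatment was 1.28 for Atp5g1, 0.75 for Atp5l, 1.80 for Cox5b, 1.95 for Cycs, 1.91 for Uqcrb and -1.11 for Cox7a2l. Counts of calls under this step were 32 higher and 5 lower of 45, as Cox6c2 was merged into Cox6c.

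**Figure D5:**
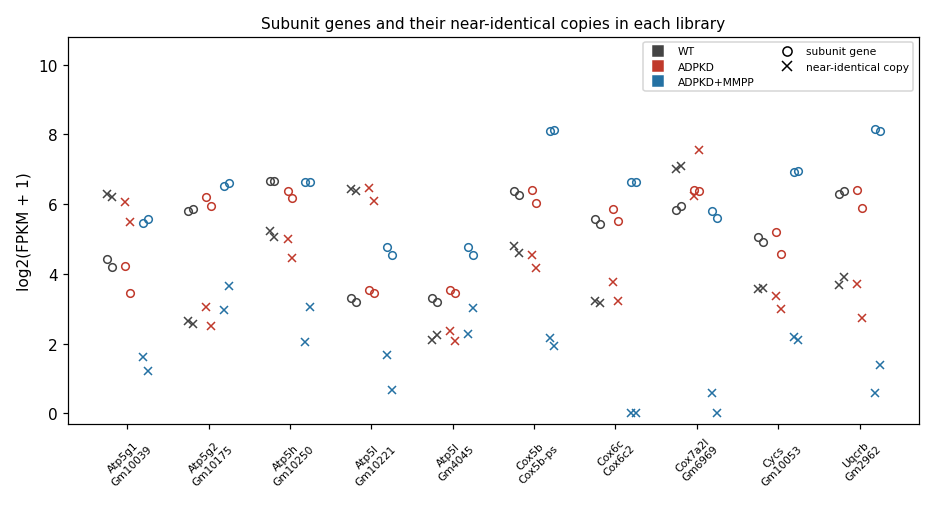
Level of 9 subunit genes (circles) and of their near-identical copies (crosses) in each library, as log2(FPKM + 1), coloured by group, with the name of the copy under that of the subunit gene. Crosses of Gm10039, Gm10221, Gm6969 and Cox6c2 lie lowest in ADPKD+MMPP, where Gm6969 reads 0.495 and 0 FPKM, while those of Gm10175 and Gm4045 do not.

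A list of 43 assembly and regulatory factors of these complexes also held Atpif1, an inhibitor, and Ndufa4, now counted as a subunit of complex IV, and 39 of the 43 were tested. After MMPP 25 were called higher and 6 lower, against 27.9% and 43.0% of all genes tested (median change of the list 1.09 on the log2 scale). In ADPKD against WT 2 were higher and 2 lower, against 14.2% and 12.5%. The highest changes after treatment were those of Fmc1, which aids F1 assembly, from 17.9 and 12.8 FPKM in ADPKD to 121 and 118 (2.90), Coa3, an early factor for complex IV, from 54.0 and 28.8 to 242 and 247 (2.60), and Taco1, which activates translation of mitochondrial Cox1, from 2.49 and 1.08 to 14.2 and 13.7 (2.47). The lowest were Atpaf2, a chaperone that binds the alpha subunit of F1, from 9.80 and 7.70 to 0.388 and 1.09 FPKM (-2.51), Uqcc1 of complex III, from 3.95 and 2.69 to 0.561 and 0.273 (-1.60), and Pet100 of complex IV, from 4.30 and 2.16 to 0.474 and 0.359 (-1.53). The 4 called in ADPKD against WT, named here because they are so few, were Sco1 and Atpif1 (higher) and Uqcc1 and Fmc1 (lower). Atpif1, the inhibitor that stops ATP synthase from running backwards, stood at 14.8 and 14.1 FPKM in WT, 26.3 and 24.7 in ADPKD and 59.7 and 51.3 in ADPKD+MMPP, and its groups did not overlap (0.78 ± 0.13 in ADPKD against WT, limma adjusted p = 0.0109). Fmc1 fell in ADPKD, from 26.9 and 24.6 to 17.9 and 12.8 FPKM (-0.73, limma adjusted p = 0.0323), before standing highest after treatment.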

How the data were processed

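RNA-seq of DBA-positive kidney cells was analysed in 6 libraries (WT, ADPKD and ADPKD+MMPP, 2 each, grouped by GEO's labels). According to the methods and the submitters' processing notes, the authors aligned reads to GRCm38/mm10 with HISAT2 2.1.0, counted them with featureCounts 1.6.0 and tested counts with DESeq2. The deposited values are FPKM, 1 table a library. The annotation release and the way FPKM was made are not given in the sources used here. Because FPKM are not counts, limma 3.58.1 in R 4.3.3 was applied to log2(FPKM + 1) of 14862 rows with at least 1 FPKM in at least 2 libraries, in a common fit over 6 libraries with group as the only term. Calls used the thresholds of the methods (fold change of at least 1.5, P under 0.05), and adjusted p-values are Benjamini-Hochberg over all rows tested. On this scale the change of low genes is understated.

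Single-read steps (98.1 to 98.9% of values under 20 reads whole within 0.02 reads) gave depths of 10900000 to 33100000 reads. At the members' median exon length of 1550.0 bases, 3 reads are 0.0585 to 0.177 FPKM. Floors cover counting error only. GENCODE vM21 gave positions and transcripts for 49 members, Atp5pb and Atp5md through the older symbols Atp5f1 and Usmg5, and Atp5o was not matched. Copies were sought with blastn 2.17.0 among vM21 transcripts, exon overlap with bedtools 2.31.1, and promoter letters in RefSeq's GRCm38.p6 table. Bins of transcript share numbered 20, of which 18 held genes.

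The members, the gene lists and the rule for naming genes (core subunits, tested paralogs, calls in ADPKD against WT, the most abundant gene of each complex and the 3 highest and 3 lowest changes) were chosen with earlier results of these data known. The limma call of ADPKD against WT was also run on simulated data of independent, normally spread values. Those lack the library and processing differences of these data, so no result here rests on them. Alternatives covered the pseudocount, filter, scaling, trend, groups in the fit, thresholds, replicate block, transcript overlap, copies and each library left out. Replicate numbers are shared between groups, and nothing in the labels says that they mark a common batch or litter.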

Additional observations from a re-analysis of the deposited data

How the results depend on the processing

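The count of 3 members called in ADPKD against WT ranged from 1 to 7 when 1 library was left out, and the median from -0.37 to 0.09. It was 1 with adjusted p-values in place of P, 0 at a fold change of at least 2, and 0 among the 2 members that are protein-coding genes with 1 annotated transcript (Sdhd and Uqcrfs1). In limma at unadjusted P under 0.05 and a fold change of 1.5 neither of those 2 was called. Leaving out a library gave 37 to 41 calls and medians of 1.303 to 1.67 for ADPKD+MMPP against ADPKD, and 38 to 39 calls and 1.28 to 1.35 against WT.

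Scaling moved the size of the rise after MMPP but not its direction. Against ADPKD the median was 1.19 with a common FPKM sum, 1.83 with TMM factors, 1.20 with quantile normalization and 1.16 among the 2 genes with 1 transcript, of which both were called. Against WT it was 0.94, 1.62, 1.001 and 0.94, again with 2 called. Relative to the median of all rows tested (-0.55, -0.14 and 0.10 under the first 3 scalings against ADPKD), the members stood 1.74, 1.97 and 1.09 higher, and 1.85 higher as deposited. The cause of the shift was not tested.

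With genes compared only with others of like transcript overlap, Atp5a1 turned to 0.32, Cox4i2 to 0.83 and Cox7a2l to 1.04 against ADPKD, Cox4i2 to 0.27 against WT, the balance of Cox4i1 over Cox4i2 to -0.18 against ADPKD, and that of Cox7a1 over Cox7a2 to 0.23 against WT. Atp5c1, Atp5j2 and Atp5l lost their call against ADPKD. The Cox4i2 values under this step rest on 4 and 6 treated reads and a pseudocount of 1. Leaving out a library kept Atp5a1 between -1.67 and -1.14, Cox4i2 between -1.23 and -0.98 and Cox7a2l between -0.79 and -0.58 against ADPKD, Cox4i2 between -1.92 and -1.49 against WT, and those balances between 1.05 and 1.19 and between -0.44 and -0.24. Cox7a2l lost its call with TMM factors (-0.35) and without ADPKD+MMPP replicate 2 (-0.58), and Cox4i2 with quantile normalization (-0.45).

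Replicate numbers did not pair the libraries: deviations of same-numbered libraries correlated at 0.129 (WT and ADPKD), -0.00796 (WT and ADPKD+MMPP) and 0.0137 (ADPKD and ADPKD+MMPP) over 14862 genes. With the replicate block the counts were 3, 38 and 38 and the medians -0.14, 1.49 and 1.33, as without it. The comparison of protein sequences between paralogs was not run. The ADPKD+MMPP libraries are shallower, so 1 FPKM at the members' median length is 16.9 to 18.3 reads there and 47.4 to 51.3 elsewhere, which limits Cox4i2, Cox8b and Cox6a2 most.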

Other observations

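Beside the members, markers of cell stress and of other cells stood at different levels. Summed over 8 dissociation-response genes the level was 9352 and 9978 FPKM in WT, 5698 and 4249 in ADPKD and 11040 and 11170 in ADPKD+MMPP. Of the 8, 5 were called lower in ADPKD against WT (12.5% of all genes tested), and 5 higher and 2 lower after treatment (27.9% and 43.0%). Summed over 7 leukocyte markers the level was 52.9 and 55.9, 381 and 451, and 836 and 867 FPKM. All 6 tested were called higher in ADPKD against WT (14.2% of all genes tested), and 2 higher and 4 lower after treatment (27.9% and 43.0%). Lyz2 (568 and 565 FPKM) and C1qa (241 and 271) made up most of the treated sum, while Ptprc, Cd68, Csf1r and Adgre1 stood lower than in ADPKD. Summed over 6 markers of the thick limb and distal tubule the level was 1261 and 489 FPKM in WT, 608 and 201 in ADPKD and 190 and 187 in ADPKD+MMPP. Their part in the levels of the subunit genes was not tested.

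The haem lyase Hccs, which attaches haem to cytochrome c, stood at 5.82 and 5.89 FPKM in WT, 5.92 and 5.09 in ADPKD and 1.74 and 1.35 in ADPKD+MMPP, while Cycs itself rose from 36.0 and 23.0 in ADPKD to 121 and 122. Cox20, an assembly factor that holds newly made Cox2, stood at 1.67 and 2.56, 1.301 and 1.84, and 0 FPKM in both treated libraries. Ndufa4, now counted with complex IV, went from 115.1 and 78.1 in ADPKD to 201 and 208. These 3 genes were singled out after their values were seen.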
